A study of Mus musculus with 3 samples.

Results

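Mammalian cells hold a pair of cytosolic tRNAs that carry methionine, and fragments of both were counted here in small RNA libraries of the mouse. The initiator, tRNA-iMet-CAT, places the first amino acid of every protein, and the elongator, tRNA-Met-CAT, adds methionine inside the chain. The 2 members were followed through reads that began at base 1, 2 or 3 of the mature tRNA, called 5′ reads below. Such reads were exact, or carried 1 substitution or 1 deletion of 1 to 3 bases, and these altered reads were kept apart. Sperm held 20026 of them among 15690722 reads (691 of 1302963 distinct sequences), testis 712 among 23783785 (63 of 2592365) and uterus 36 among 15876066 (25 of 526203).

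The series compared small RNAs of 3 sources in CD1 mice, an outbred strain, with 1 library for each. The sources were mature sperm released from the cauda epididymis, adult testis and adult uterus. Per the labels, sperm were kept for some minutes in a detergent buffer meant to remove somatic cells. The labels do not give the age beyond adult, the number of animals or whether animals were pooled. With 1 library per source no test was possible, and all intervals are exact 95% intervals of counting error alone, since reads amplified by PCR without molecular identifiers are not independent molecules. In bulk RNA, fewer cells with a fragment and less of it per cell cannot be told apart.

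The libraries held reads of 18 to 44 nt, but their sizes differed. Reads of 29 nt and longer were 81.3% of the sperm library, 79.8% of the testis library and 0.429% of the uterus library. As a check of the labels, miR-449a-5p, a microRNA found in male germ cells, stood at 37.6 reads per 1000000 reads (RPM) in testis. It stood at 2.55 RPM in sperm (1.82 to 3.47) and 2.27 RPM in uterus (1.59 to 3.14), and so did not set sperm apart from uterus. The X-linked germ cell microRNA miR-741-3p stood at 73.7 RPM in sperm and 7.48 RPM in testis, and no read was found in uterus. The connective tissue microRNA miR-199a-3p stood at 29079 RPM in uterus, 24.3 RPM in sperm and 29.01 RPM in testis.

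As background, the cloverleaf of a tRNA runs from the 5′ strand of the acceptor stem through the D arm to the anticodon loop, and nucleases such as angiogenin are known to cut in that loop and release long 5′ and 3′ fragments. Several bases of mature tRNA carry methyl groups. Where a methyl group sits on the pairing face of the base, reverse transcriptase stops, skips it or inserts a wrong base, so that such sites can show as alterations in reads. Known sites of this kind in mammals include methylated G at position 9, dimethylated G at position 26 and methylated A at position 58, each only in some tRNAs. Precursor tRNAs still have extra bases before base 1, and enzymes add the letters CCA to the 3′ end after trimming.

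No mature tRNA sequence was at hand, so the first 48 bases of each tRNA were read from the deposited reads, starting from a known stretch of 12 bases. They are shown because all later positions are counted on them, from base 1 at the 5′ end. Capitals mark base 9 and the anticodon, which fills bases 33 to 35 of the initiator and 34 to 36 of the elongator. The elongator was found with 3 acceptor stems, named here by their bases 5 and 6 (CG, CC and TC), and the CC form is printed.
tRNA-iMet-CAT: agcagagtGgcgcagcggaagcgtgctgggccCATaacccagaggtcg
tRNA-Met-CAT, stem CC: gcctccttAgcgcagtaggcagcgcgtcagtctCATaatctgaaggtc

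The pair thus differ at base 9, which is G in the initiator and A in the elongator. Base 20 of the elongator was read as C or T, and both were taken as exact, since the reads do not tell a gene difference from a misread base there. The RefSeq gene table of GRCm38.p6 names 16 nuclear genes with this anticodon among 408 nuclear tRNA genes, 9 of 72 bases and 7 of 73, without saying which are initiators. The reads do not tell which of those genes they came from.

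The fragments that carried the results were the following, shown because the pair differ in where these reads end and in which base is altered. For the initiator they are the exact reads that led in sperm and testis, with base 9 in capitals, then the leading reads with G9T, and a testis read with T in place of the last base.
initiator, bases 1 to 30: agcagagtGgcgcagcggaagcgtgctggg
initiator, bases 1 to 32: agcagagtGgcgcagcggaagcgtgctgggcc
initiator, bases 1 to 33: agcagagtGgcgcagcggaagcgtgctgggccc
initiator, bases 1 to 29: agcagagtGgcgcagcggaagcgtgctgg
initiator, bases 1 to 24: agcagagtGgcgcagcggaagcgt
initiator, bases 1 to 30 with G9T: agcagagtTgcgcagcggaagcgtgctggg
initiator, bases 1 to 29 with G9T: agcagagtTgcgcagcggaagcgtgctgg
initiator, bases 1 to 30 with G30T: agcagagtggcgcagcggaagcgtgctggT

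The elongator reads printed next came from sperm. They are the leading exact read, the third in order and, as an example of a substituted base 26, a longer read with G26T. Capitals mark base 20 and base 26.
elongator, stem CG, bases 1 to 19: gcctcgttagcgcagtagg
elongator, stem CC, bases 1 to 24: gcctccttagcgcagtaggTagcg
elongator, stem CC, bases 1 to 34 with G26T: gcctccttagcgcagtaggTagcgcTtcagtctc

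Initiator fragments were far more abundant than elongator fragments in sperm and in testis. There were 10145 exact initiator 5′ reads from sperm, 296 from testis and 13 from uterus. Their level was 647 RPM in sperm (634 to 659), 12.4 RPM in testis (11.1 to 13.9) and 0.819 RPM in uterus (0.436 to 1.40). Sperm thus held the most and uterus the least, with intervals that do not overlap.

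Exact elongator 5′ reads were 267 from sperm, 0 from testis and 3 from uterus. Their level was 17.02 RPM in sperm (15.04 to 19.2) and 0.189 RPM in uterus (0.0390 to 0.552), and 0 reads were found in testis, where the exact upper limit is 0.155 RPM. Ratios against those 0 reads use 3 counts, or 0.126 RPM. That is below the exact upper limit, so such ratios are not exact bounds. Testis and uterus cannot be put in order for the elongator at this depth. It was the deepest library, testis, in which no elongator 5′ read was found, altered reads included.

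Per 1000000 reads the initiator was 52.0-fold higher in sperm than in testis (46.3 to 58.5), 790-fold higher in sperm than in uterus (462 to 1483) and 15.2-fold higher in testis than in uterus (8.75 to 28.9). With 3 counts set for testis, the elongator was 135-fold higher in sperm than in testis. Its ratio of sperm to uterus was 90.1 (30.5 to 439), from 3 uterus reads. Within a library, where depth cancels, the initiator exceeded the elongator 38.0-fold in sperm (33.6 to 43.1). In testis the ratio was 98.7 with 3 counts set for the elongator. The uterus ratio was 4.33 (1.19 to 23.7), from 13 and 3 reads. No difference between these ratios was tested.

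The order of sperm and testis for the initiator depends on what it is divided by. Reads that begin with the first 18 bases of 12 other tRNA families were 36.6% of the sperm library, 0.669% of the testis library and 0.0274% of the uterus library. They were mostly tRNA-Glu-CTC (61.6%) and tRNA-Gly-GCC (29.9%) in sperm and tRNA-Glu-CTC alone in testis (93.4%), while tRNA-Lys-TTT led in uterus (28.7%). Divided by those reads, exact initiator reads were 0.951 times as high in sperm as in testis (0.847 to 1.07). That value asks for a match over the whole initiator read but over only 18 bases of the others.

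With 18 matching bases asked of both, a comparison added after the values above had been seen, the initiator was 0.624 times as high in sperm as in testis (0.568 to 0.687). Without tRNA-Glu-CTC in the divisor it was 0.107 (0.0972 to 0.118). In that divisor tRNA-Gly-GCC remained, with 1716798 reads in sperm and 297 in testis. The initiator was thus higher in sperm as a share of all reads. It was higher in testis relative to the counted tRNA reads when the match was alike. The amount of the latter difference changed with the families in the divisor. For the elongator the ratio of sperm to testis was at least 2.47 over the counted tRNA reads. With 18 bases asked of both and tRNA-Glu-CTC left out its lower bound was 0.599, which gives no direction.

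Read length also entered the comparison. Among reads of 18 to 28 nt, which every library held, the initiator was 21.2-fold higher in sperm than in testis and exceeded the elongator 4.55-fold in sperm. Between sperm and uterus the initiator ratio at 18 to 28 nt was 396 (135 to 1924), from 1175 and 3 reads, against 790 for all lengths. Within uterus the initiator and the elongator had 3 reads each at that length. Among reads of 29 nt and longer the ratios of sperm to testis and of initiator to elongator in sperm were 64.1 and 997. Only 9 exact elongator reads of sperm were that long, against 8970 of the initiator. With altered reads the counts were 67 and 17143. Every elongator read of that length covers base 26, whose alteration is described below.

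**Figure D1:**
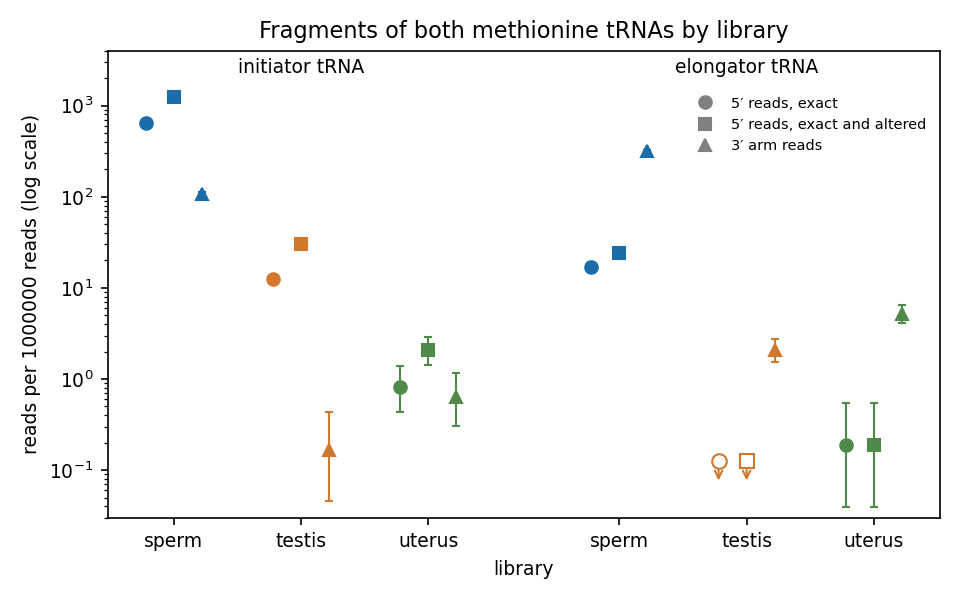
Level of each tRNA by library in reads per 1000000 reads on a log axis, as exact 5′ reads (circles), exact and altered 5′ reads together (squares) and 3′ arm reads (triangles). Bars are exact Poisson 95% intervals and open symbols with arrows are the level of 3 counts where 0 reads were found. The initiator leads in 5′ reads in every library, whereas 3′ arm reads of the elongator exceed those of the initiator.

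Altered reads were a large part of the initiator. They were 48.4% of its 5′ reads in sperm (7035 reads with a substitution and 2463 with a deletion), 58.4% in testis (373 and 43) and 60.6% in uterus (14 and 6). In the elongator 30.3% of sperm 5′ reads were altered (93 with a substitution and 23 with a deletion). With altered reads included, the level of the initiator was 1252 RPM in sperm, 29.9 RPM in testis and 2.08 RPM in uterus, and that of the elongator 24.4 RPM in sperm.

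Among the 5′ reads, which by definition begin at base 1 to 3, base 1 was the first base of 95.7% of exact initiator reads in sperm, 99.3% in testis and 12 of 13 in uterus, and of 98.9% of exact elongator reads in sperm. Start at base 3 was next for the initiator in sperm, with 308 reads (3.04%).

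Among the exact elongator reads of sperm the CG stem held 174 of 267 (65.2%), the CC stem 63 (23.6%) and the TC stem 30 (11.2%). The leading CG fragment ended at base 19 and the leading CC fragment at base 24. In uterus 2 of the 3 reads had the CC stem and 1 the CG stem.

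The ends of initiator fragments lay near the anticodon loop, at different bases in sperm and testis. In sperm 25.8% of exact reads ended at base 30, 13.3% at base 31, 22.8% at base 32 and 15.6% at base 33, the first base of the anticodon. A smaller group of 5.36% ended at base 25, in the D arm region, and 5.22% ended at bases 40 to 44. The anticodon loop, bases 31 to 37, held 53.1% of the ends in sperm (52.1 to 54.0).

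In testis 49.7% of exact initiator reads ended at base 29, 21.96% at base 30, 12.8% at base 24 and 6.76% at base 25. No exact read ended past base 30 (0 of 296 reads, upper limit 1.24%). With altered reads 25 of 712 did (3.51%), and 20 of these carried C31T. The median end was base 31 in sperm and base 29 in testis. Reads of 31 nt and longer were 26.8% of the testis library (6367168 reads) and 61.2% of the sperm library; the part of this in the shift of the ends was not tested. In uterus 5 of 13 reads ended at base 30, 3 at base 29 and 3 at base 32, with 1 each at bases 24 and 27.

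Counts of single fragments show the same shift. The fragment of bases 1 to 30 had 2505 sperm, 65 testis and 5 uterus reads. That of bases 1 to 32 had 2190 sperm, 0 testis and 3 uterus reads. That of bases 1 to 33 had 1549, 0 and 0. The fragment of bases 1 to 29 had 460 in sperm, 147 in testis and 2 in uterus. The fragment of 30 bases led in sperm and that of 29 bases in testis. Those of 32 and 33 bases, next in order in sperm, were not found in testis.

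Elongator fragments ended in the D arm instead. In sperm 44.2% of exact reads ended at base 19 and 38.2% at base 24, with 6.37% at base 23 and 5.99% at base 25. Bases 19 and 24 together took 82.4% of elongator ends (77.3 to 86.8) but 1.47% of initiator ends in sperm (1.24 to 1.72). In the anticodon loop, bases 32 to 38, lay 2.62% of elongator ends. The 3 uterus reads ended at bases 19, 25 and 25.

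The short ends of the elongator rest partly on the demand for an exact match. Counting altered reads, 17.5% of elongator reads in sperm went past base 25, against 3.37% of exact reads, and 16.2% ended in the anticodon loop. Base 34 then held 6.79% and base 35 4.18% of the ends. Ends at bases 19 and 24 still made up 67.1% of the reads, and the same measure for the initiator was 1.41%.

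**Figure D2:**
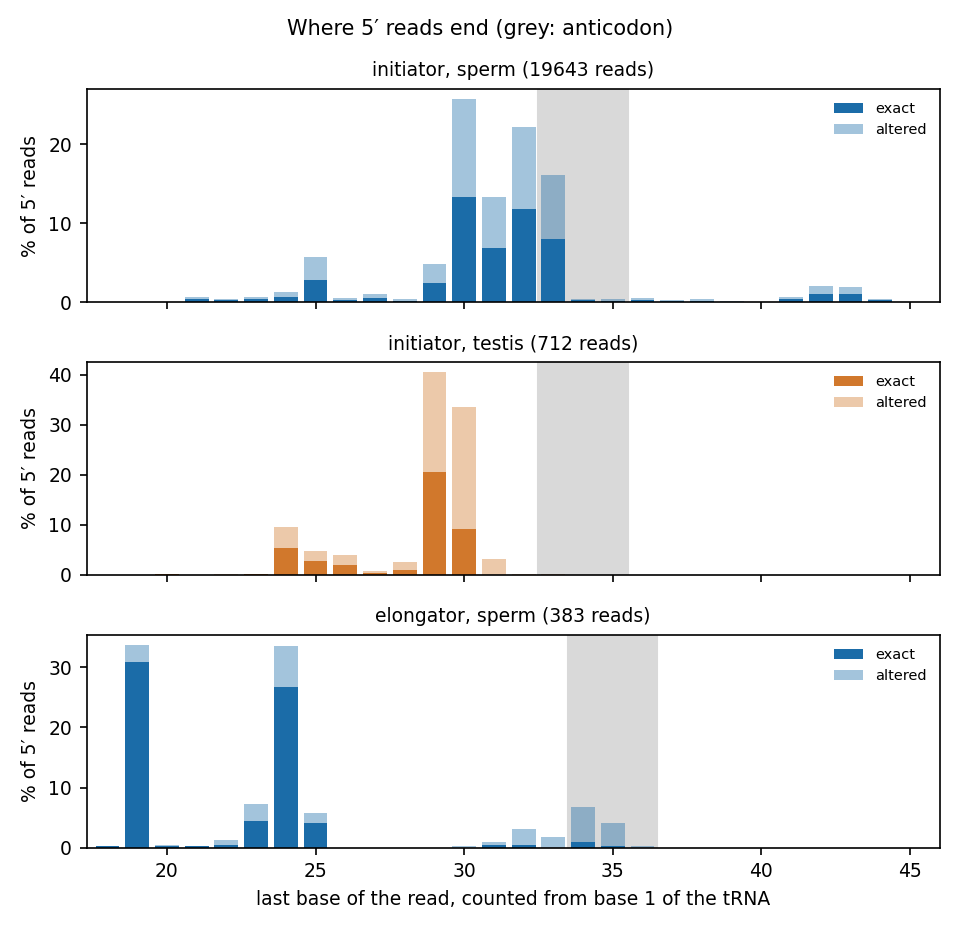
Share of 5′ reads that ended at each base, for the initiator in sperm and testis and the elongator in sperm, with exact reads in full colour and altered reads in pale colour on top. Grey bands mark the anticodon, and the number of reads is given above each panel. Initiator ends gather at bases 29 to 33 in sperm and at bases 29 and 30 in testis, and elongator ends at bases 19 and 24. Of the 239 testis reads drawn at base 30, 91 match only up to base 29 and carry a mismatched last T, described below.

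Base 9 was the main altered site of the initiator in sperm, and it was hardly altered in the elongator. Of the 18430 sperm reads that were exact or altered only at base 9, 8285 were altered there, or 45.0% (44.2 to 45.7). The share was 46.3% in testis (255 of 551 reads, 42.1 to 50.5) and 59.4% in uterus (19 of 32 reads, 40.6 to 76.3). These intervals overlap between all 3 libraries. In the elongator 1 of 268 sperm reads was altered at base 9, an A9T, or 0.373% (up to 2.06), and 0 of 3 uterus reads.

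The altered base was most often T. In sperm G9T made up 18.7% of the reads, G9C 7.84% and G9A 7.27%, and a deletion of 1 base 10.8%. In testis G9T made up 27.4% (23.7 to 31.3), G9C 10.5% and G9A 3.63% (2.23 to 5.55), and a deletion of 1 base 4.72% (3.11 to 6.84). The total was alike, but testis held more G9T and fewer G9A reads and deletions than sperm, with intervals apart. Bases 9 and 10 are both G, so a deletion of either looks the same and was counted at base 9.

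The altered share did not rest on 1 fragment length. Among the 21 ends with at least 50 such reads in sperm it lay between 29.3% and 53.6%, and it was 44.9% at base 30 and 43.4% at base 32. In testis it was 43.3% at base 24, 44.7% at base 29 and 50% at base 30. The leading altered fragment, bases 1 to 30 with G9T, had 840 sperm, 37 testis and 2 uterus reads.

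Reads with extra bases before base 1 gave another view of base 9. Sperm held 83 reads with at least 2 extra bases for the initiator, with 2 in testis and 1 in uterus, and 24 for the elongator, with 0 in testis and 1 in uterus. Leaving base 9 free, 71 such sperm reads covered the first 18 bases of the initiator, and 65 of them had G at base 9, or 91.5% (82.5 to 96.8). Among the 16473 sperm reads that began at base 1 the same measure was 61.9% (61.2 to 62.7). The leading read of this kind had 7 extra bases and 8 reads, and is printed because it joins the extra bases to an unaltered base 9, shown in capitals.
initiator with 7 extra bases: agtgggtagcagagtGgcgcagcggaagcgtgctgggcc

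The initiator had a further deletion, of 2 bases at bases 4 and 5, in 392 reads of sperm. The letters ag repeat there, so that the pair lost could also be a neighbouring one. At base 26 counted from base 1, which is C in the initiator, 0.240% of covering reads were altered in sperm. The initiator anticodon starts at base 33, that of the elongator at base 34. Counted back from the anticodon, the place of elongator base 26 is therefore base 25 of the initiator, a G. It was altered in 0.889% of 19006 covering reads in sperm (0.761 to 1.03).

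The elongator was altered at base 26. Among sperm reads with at most 1 alteration 55 of the 67 that covered base 26 were altered there, or 82.1% (70.8 to 90.4), and 43 of these were G26T. When only bases 1 to 18 and the 3 bases after the site had to match, 46 of 62 reads had T at base 26 (74.2%), 10 had G, 4 had C and 2 had A. In reads with extra bases before base 1, 11 of 13 had G, though the listed base was itself taken from such reads. An exact match therefore removes most elongator reads that reach base 26, which bears on every exact level and end given above.

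Base 20 of the elongator was read as T in 180 of 221 sperm reads, as C in 18, as A in 18 and as G in 5, by the same looser match. The stems differed: T was found in 92 of 93 reads with the CG stem, 60 of 90 with the CC stem and 28 of 38 with the TC stem. In reads with extra bases before base 1, C was found in 9 of 9 reads with the TC stem and 1 of 1 with the CC stem, and T in 2 of 2 with the CG stem. A mix of bases in reads that began at base 1 was thus seen for the CC and TC stems.

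**Figure D3:**
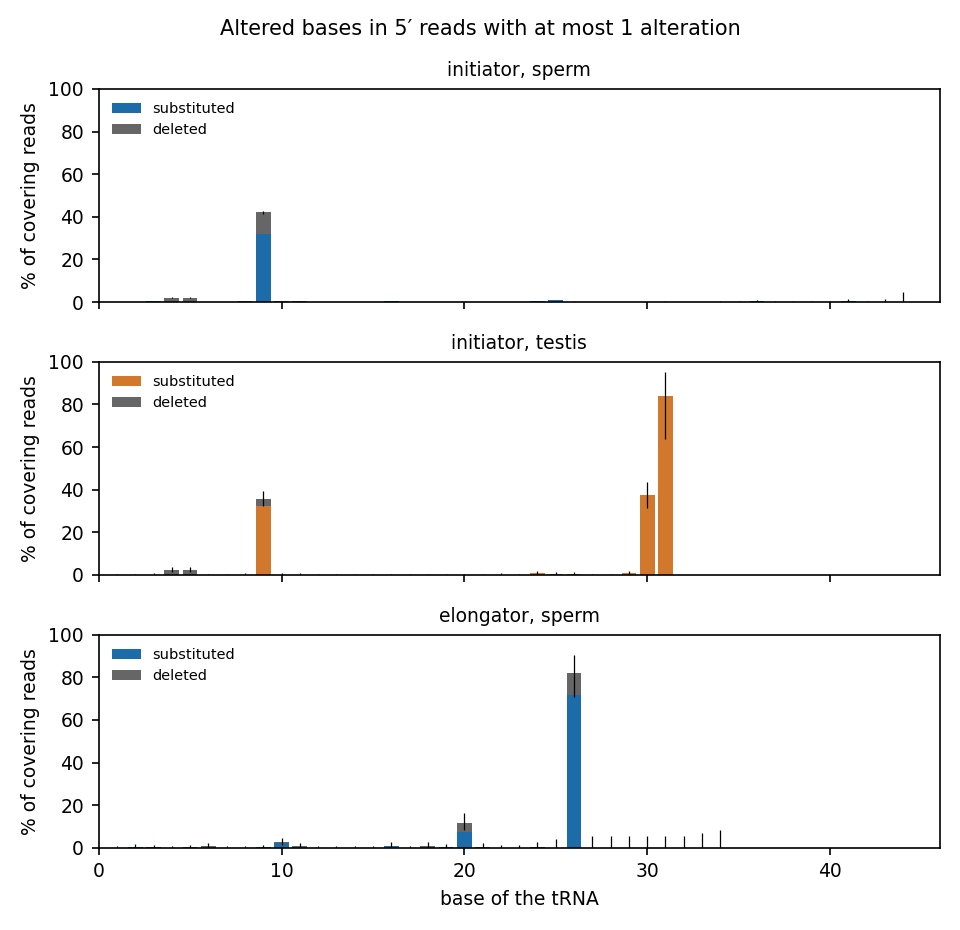
Share of covering 5′ reads with an altered base at each position, substitutions in colour and deletions in dark grey, with exact 95% intervals, for positions covered by at least 20 reads. Base 9 stands out in the initiator in both libraries, bases 30 and 31 in testis, where those reads end, and bases 20 and 26 in the elongator.

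In testis many initiator reads ended with a T that the tRNA does not have at that place. Among reads exact up to the last base, 118 of 425 had a mismatched T as that base in testis, or 27.8% (23.6 to 32.3), against 9 of 10214 in sperm, or 0.0881% (0.0403 to 0.167). After base 29 the T replaced the next base in 91 of 238 testis reads (38.2%), and after base 30 in 20 of 85 (23.5%). Another 4 testis reads had 2 such T and 1 had 3. The fragment with G30T had 91 reads in testis, 1 in sperm and 0 in uterus. Reads with a mismatched last T are not counted as exact, which bears on the exact testis levels, ratios and ends given above.

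Base 24 of the initiator is itself T, so a T added after base 23 would count as an exact end at base 24. In testis 38 exact reads ended at base 24 and 1 at base 23. The same measure in other tRNA families, added after the values above had been seen, gave 15.4% for tRNA-Glu-CTC and 14.5% for tRNA-Glu-TTC in testis, against 0.0559% and 0.0471% in sperm. In testis it was 10.3% for tRNA-Leu-CAG and 9.58% for tRNA-Lys-CTT, where other mismatched last bases came to 14.02% and 7.19%. It was 1.26% for tRNA-Asp-GTC (4 of 317 reads) and 0 of 170 reads for tRNA-Pro-AGG. A mismatched last T in testis reads was therefore not confined to the initiator.

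The 3′ arms gave the opposite order of the pair. Reads that held the 12 bases around the variable loop numbered 1687 for the initiator and 5024 for the elongator in sperm, 4 and 49 in testis, and 10 and 82 in uterus. Shorter 3′ fragments without those bases, and any fragments over 44 nt, are not counted. In sperm the initiator had 11.6 5′ reads for each 3′ arm read (11.1 to 12.2), and the elongator had 0.0762 (0.0685 to 0.0846). In testis the initiator had 178 (69.2 to 655), from 4 arm reads. The elongator had 0.0612 with 3 counts set for its 0 5′ reads. In uterus the values were 3.30 (1.59 to 7.51) and 0.0366 (0.00739 to 0.111). The initiator was thus seen mainly as its 5′ part and the elongator mainly as its 3′ part in all 3 libraries.

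In sperm, ends in the added CCA were more common in the elongator. There 1483 of its 5024 arm reads ended in CCA (29.5%), against 71 of 1687 for the initiator (4.21%). In testis 1 of 49 elongator and 0 of 4 initiator arm reads ended so, and in uterus 0 of 82 and 0 of 10. Since no read exceeded 44 nt, an arm read that begins too far from the 3′ end cannot reach CCA. The leading initiator arm read begins before the anticodon and that of the elongator after it. The part of this limit in the CCA shares was not tested. The leading arm reads had 501 reads for the elongator and 138 for the initiator in sperm, and 0 in testis and uterus. They are printed to show that the elongator read runs to the end of the mature tRNA, marked by its last letters cca, and the initiator read stops before it. The capital T in each stands at the T-loop base described next.
elongator, 3′ arm: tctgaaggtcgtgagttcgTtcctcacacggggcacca
initiator, 3′ arm: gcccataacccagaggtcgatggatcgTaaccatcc

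The T loop of both tRNAs has an A at standard position 58, and the arm reads printed above carry T there. In sperm that base was read as A in 33.3% of 679 initiator reads, as T in 41.2% and as G in 24.3%. In the elongator it was read as A in 34.6% of 4619 reads, as T in 53.2% and as G in 11.6%. The share read as A was alike in the pair, while G was more common in the initiator, with intervals of 21.1 to 27.7 and 10.7 to 12.5.

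Among 14 tRNA families counted by their first 18 bases, the initiator had rank 9 for sperm, rank 4 for testis and rank 13 for uterus. The elongator ranked last in each library. Likeness of levels was taken as the Euclidean distance of log2 RPM over the 3 libraries. The nearest family to the initiator was tRNA-Asp-GTC at 0.49, followed by tRNA-Cys-GCA at 3.35 and tRNA-Pro-AGG at 4.07. The nearest to the elongator were tRNA-His-GTG at 5.71, tRNA-Asp-GTC at 9.21 and tRNA-Cys-GCA at 9.36. By this measure the ratio of sperm to testis was 34.1 for the initiator (31.0 to 37.5), and in the 12 other families it ran from 21.3 for tRNA-Glu-TTC to 8762 for tRNA-Gly-GCC.

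Base 9 was then compared across these families as the share of reads with another base there and the other 17 bases exact. In sperm the initiator, at 38.1% (37.3 to 38.8), lay just below tRNA-Pro-AGG at 40.9% (40.3 to 41.4). It lay above tRNA-Asp-GTC at 25.7% and tRNA-Glu-TTC at 8.70%. Every other family counted was below 1% in sperm, among them tRNA-Leu-CAG at 0.0672% and tRNA-Gly-GCC at 0.348%, which also have G at base 9.

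In testis the initiator led with 41.6% (38.1 to 45.1), followed by tRNA-Pro-AGG at 29.9% and tRNA-Glu-CTC at 19.6%. For tRNA-Glu-CTC the share was 0.717% in sperm, whereas the initiator kept a similar share in sperm and testis. In uterus the initiator stood at 52.0% of 25 reads (31.3 to 72.2) and tRNA-Asp-GTC at 40.7% of 27 reads. With 1 library per source these differences between families were not tested.

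**Figure D4:**
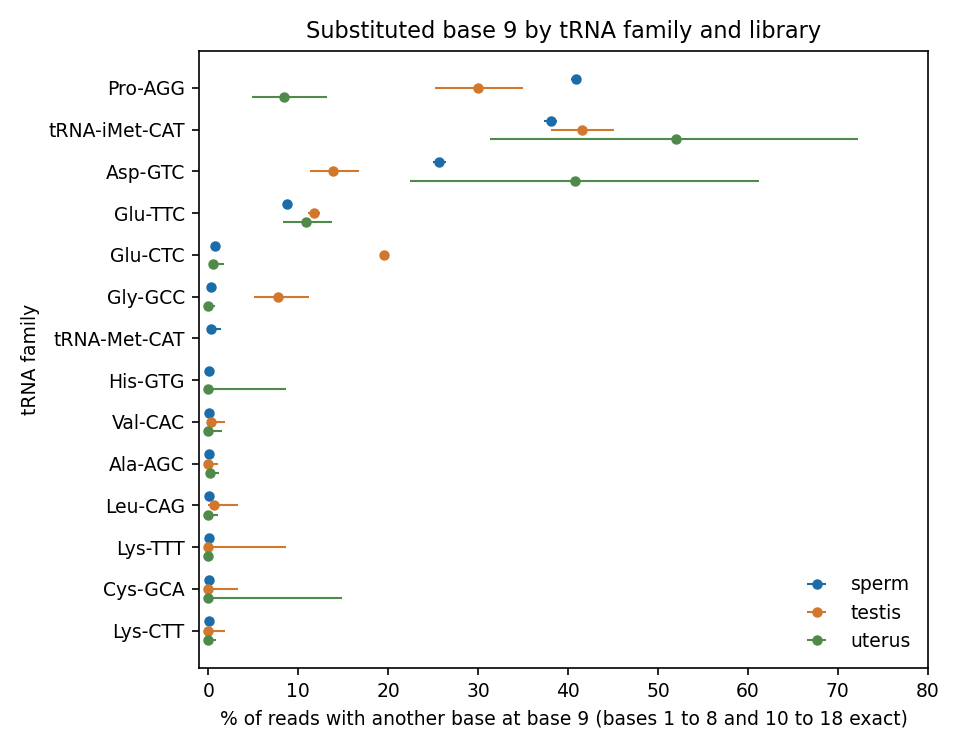
Share of reads with a substituted base 9 in 14 tRNA families, in percent with exact 95% intervals, for families with at least 20 reads in a library (the elongator is drawn for sperm only). The initiator lies at 38.1% (sperm), 41.6% (testis) and 52.0% (uterus). The elongator lies at 0.264% in sperm.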

How the data were processed

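Small RNA was ligated to adapters, reverse transcribed, amplified and sequenced, per the labels' protocols. The deposited tables give counts, whole numbers of reads per distinct sequence, which show no normalization by the authors. The genome build mm9 is named in the submitters' processing notes. Trimming, size selection and aligner were not given in the sources used here.

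Reads were compared with the 48-base sequences described above, built from the reads themselves: leader reads, then overlaps of 14 bases. Altered reads needed at least 3 matching bases beside a deletion. Levels are reads per 1000000 reads of the library. Intervals are exact Poisson, Clopper-Pearson or conditional binomial (scipy 1.17.1), and 3 counts stand for 0. Matching was tested on simulated reads. None of them ended at base 19, the leading end of the elongator, and none had a substitution at elongator base 20, so that test does not cover such reads.

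The fragments named are, for each tRNA and library, the 3 leading exact ones with at least 10 reads, the leading base-9-altered ones, and ends with at least 5% of exact reads. The G26T, last-base T, 3′ arm and extra-base reads and the TC stem were added after the values were seen. The members, the comparator families and these measures were chosen with earlier results of these data known. The longer sequences of the CG stem are not reported here.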

Additional observations from a re-analysis of the deposited data

How the results depend on the processing

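Of 50 alternative values, 21 stayed within the counting error of the reported one. The ratio of sperm to testis for the initiator turned to 0.951 when divided by reads of the 12 comparator families. In alternatives chosen after seeing the data it was 0.624 with 18 bases matched in both, 0.766 with altered reads over comparator reads, and 0.107 with 18 bases and no tRNA-Glu-CTC. It was 41.8 with altered reads, 21.2 for reads of 18 to 28 nt, 64.1 for those of 29 nt and longer and 10.9 when distinct sequences were counted. The elongator ratio, with 3 counts set for testis, became 194 with altered reads and 4.55 at 29 nt and longer. It was 19.2 for distinct sequences and 2.47 over comparator reads. In those later alternatives it was 3.50, 3.54 and 0.599, the last giving no direction. The ratio of initiator to elongator in sperm was 51.3 with altered reads and 4.55 at 18 to 28 nt. It was 997 at 29 nt and longer, from 8970 and 9 exact reads, and 1.90 for distinct sequences. In testis the same ratio, with 3 counts set for the elongator, was 237, 28, 70.7 and 3.33 in that order. In uterus both had 3 reads at 18 to 28 nt, and no ratio is formed where neither count exceeds 3. The altered share of base 9 in sperm was 38.1% with substitutions only, 77.7% for distinct sequences, 46.3% at 18 to 28 nt and 38.1% when only bases 1 to 18 had to match. In testis it was 75.0% for distinct sequences and 41.6% for bases 1 to 18. The cause was not tested. No paired analysis was possible because each source has 1 library. Depth limits the uterus values (36 reads) and the elongator in testis (0 reads).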
